A study of Mus musculus with 10 samples.

Results

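The genes described here are the tetraspanins Cd9, Cd63, Cd81, Cd82, Cd151, Tspan18, Cd53 and Cd37, together with Tm4sf1. They were chosen by gene name, with earlier results of these data known. Of 10 listed genes, 9 have a named row among the 24704 named genes. The row of 1 further listed gene carries no name in the platform annotation used here, and that gene was not analysed.

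RNA was measured in primary mouse liver sinusoidal endothelial cells, the perforated endothelium that lines the liver's capillaries. In the 5 Gata4-LSEC-KO arrays (called knockout here), a floxed allele of the transcription factor gene Gata4 (Gata4tm1.1Sad) was combined with a Clec4g-icre transgene, which drives a Cre recombinase from control sequences of Clec4g, a lectin gene of sinusoidal endothelium. The 5 control arrays hold the same kind of cells from mice labelled WT, and the labels do not say whether these carry the transgene or the floxed allele. Each array holds RNA of cells pooled from 3 mice and enriched by magnetic sorting for CD146, which Mcam encodes. Neither age nor sex is in the labels.

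Tetraspanins are small proteins that cross the membrane at several points and carry a large extracellular loop. They bind integrins, immunoglobulin-superfamily proteins and proteases sideways and gather them into membrane domains. In endothelium such domains hold adhesion receptors and laminin-binding integrins, and inside cells CD63 lies in late endosomes and vesicles. TM4SF1 has a similar layout in the membrane but belongs to another family, L6, and is known as an abundant surface protein of endothelial cells in vessel growth. Other tetraspanins belong to other cells: CD37 and CD53 are known from leukocytes, and TSPAN8 from epithelia of the gut and bile ducts.

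None of the 9 genes passed the threshold between knockout and control arrays. By limma over all genes, 0 of 9 had an adjusted p under 0.05, against 2.14% of all genes (1.3% higher and 0.846% lower in the knockout). At an unadjusted p under 0.05 there were 3, Cd9, Cd63 and Cd53, all higher in the knockout, where 13.6% of all genes met that mark. Dim genes lower these shares of all genes, here and where they recur below. Each of the 9 genes had a mean above the median of all values. Of the 12338 genes with such a mean, fitted alone by limma, 2332 had an unadjusted p under 0.05 and 4.81% passed. Without control replicate 1, limma called 0 of 9, against 2.98% of all genes, and a linear model without moderated variances on all arrays also called 0 of 9. The groups did not overlap for 1 of 9, Cd9, against 4.93% of all genes (2.55% higher and 2.37% lower in the knockout). The median log2 fold change of the 9 genes was 0.09 and that of all genes -0.02, and 6 of the 9 lay above 0. The values are log2 RMA values of 1 probe set per gene, so the levels of different genes are not set against each other. A fold is a ratio of array values.

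Control replicate 1 was the array least like the rest. Its correlations across genes with the others were 0.920 to 0.944, and those among the other 9 arrays were 0.969 to 0.988. It was the highest or lowest control for all 9 genes, lowest for 6 and highest for 3, and for 65.5% of all genes. Its Kupffer cell marker mean was 5.45, where the other controls had 6.95 to 8.27, and its mean of stellate cell and fibroblast markers was 5.20, where they had 6.25 to 6.80. Its T and NK cell marker mean was the highest of the controls, 4.08 where the others had 3.41 to 3.60. Its B cell marker mean was also the highest, 4.21 where the others had 3.84 to 4.04. The markers of these lists did not move alike. Klrb1c read 6.82 there (other controls 3.67 to 4.21), Trbc2 7.92 (6.26 to 6.75) and the B cell marker Fcer2a 5.40 (3.59 to 3.94). Cd8a, Cd79a, Ms4a1 and Pax5 were also highest of the controls there, by less. Cd3e and Ighm were lowest of the controls there, and Cd3d, Cd3g, Cd4, Ncr1 and Cd79b lay between other controls. The Gata4 probe set read 8.59 ± 0.24 in knockout and 8.71 ± 0.15 in control arrays (SD, n = 5 each). No source used here says whether its probes lie in the deleted part. Mcam, the gene of the sorting antigen, rose (log2 fold change 1.24 ± 0.11, SE, adjusted p = 0.000242).

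The isolated cells carried endothelial markers in both groups. The mean of 10 pan-endothelial genes ran from 9.83 to 10.38 in knockout and from 9.88 to 10.20 in control arrays, where the array median is 3.71. The mean of 10 sinusoidal markers ran from 10.51 to 10.91 in knockout and from 11.04 to 11.27 in control arrays, and 5 of the 10 fell (0.846% of all genes). Markers of other cells also differed. Of 10 neutrophil and monocyte markers, 7 rose (1.3% of all genes). Their mean ran from 4.24 to 5.77 in knockout and from 2.86 to 3.45 in control arrays. Fewer cells of a type and less RNA per cell cannot be told apart in these pooled samples.

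**Figure D1:**
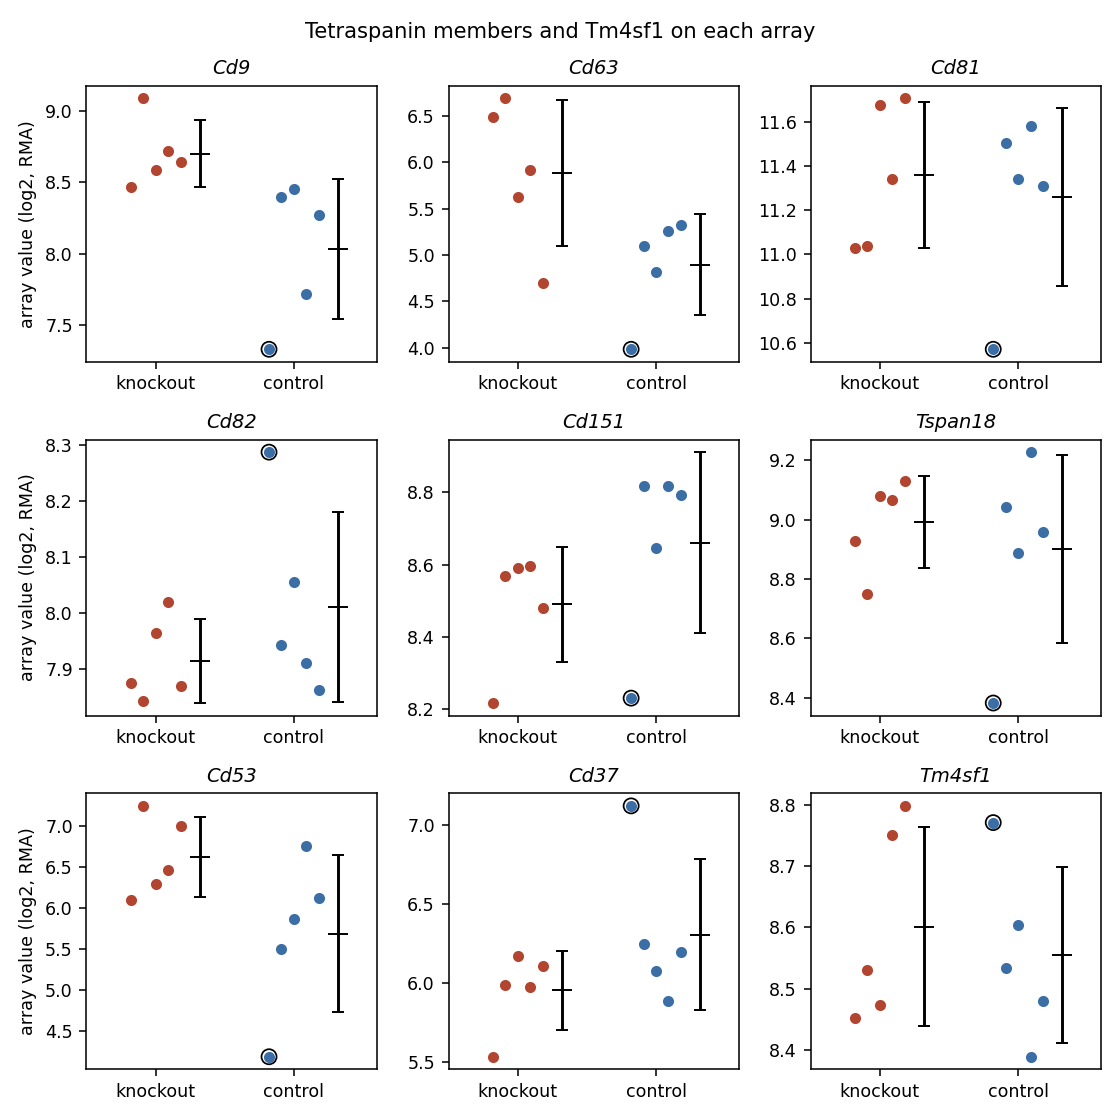
Array values (log2, RMA) of the 9 genes, knockout arrays at left (red) and control arrays at right (blue), with replicates 1 to 5 from left to right in each group. Bars are mean ± SD and the black ring marks control replicate 1. Only the panel of Cd9 shows groups that do not overlap (lowest knockout value 8.47, highest control value 8.45), and control replicate 1 lies at the edge of its group in all 9 panels.

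Among the broadly expressed tetraspanins of the 9 genes, Cd9 had the smallest p. CD9 binds beta-1 integrins and the immunoglobulin-superfamily protein encoded by Ptgfrn, and takes part in leukocyte docking on endothelium. Cd9 read 8.47, 9.09, 8.59, 8.72 and 8.64 in knockout replicates 1 to 5, against 7.33, 8.40, 8.45, 7.72 and 8.27 in control replicates 1 to 5. Every knockout array thus lay above every control array, though knockout replicate 1 and control replicate 3 were almost level. The controls spread more widely, with replicates 1 and 4 low. The mean was 8.70 ± 0.24 in knockout and 8.03 ± 0.49 in control arrays (SD, n = 5 each). The log2 fold change was 0.67 ± 0.22 (SE, adjusted p = 0.176). The interval ran from 1.14-fold to 2.21-fold higher (95% CI). Without control replicate 1 the log2 fold change was 0.49 (adjusted p = 0.181), and the groups still did not overlap. With the mean of the neutrophil and monocyte markers as a covariate it was -0.17, and with that of the pan-leukocyte genes 0.38. Platelets are known to be rich in CD9. Of 7 measured platelet and megakaryocyte markers 0 passed by limma. The 1 at an unadjusted p under 0.05, Pf4, lay higher in the knockout (log2 fold change 0.49). The mean of the 7 markers ran from 3.73 to 3.85 in knockout and from 3.64 to 3.85 in control arrays. What platelets contributed to the Cd9 values was not tested.

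Cd63, the tetraspanin of late endosomes and secreted vesicles, had the largest difference among the 9 genes and a wide spread in both groups. It read 6.49, 6.69, 5.63, 5.92 and 4.69 in knockout replicates 1 to 5, against 3.98, 5.09, 4.82, 5.26 and 5.32 in control replicates 1 to 5. Of the knockout arrays, 4 lay above every control, and replicate 5 lay below 4 of the 5 controls. Means were 5.88 ± 0.79 in knockout and 4.90 ± 0.55 in control arrays (SD, n = 5 each), for a log2 fold change of 0.99 ± 0.37 (SE, adjusted p = 0.244). Without knockout replicate 5 it was 1.28, with an adjusted p of 0.057, the smallest that any of the 9 genes reached under any alternative.

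The order of the knockout arrays for Cd63 was also that of bile duct markers. The mean of 7 measured cholangiocyte markers was 6.40, 6.88, 5.10, 5.77 and 4.87 in knockout replicates 1 to 5, against 4.30, 4.66, 4.37, 3.94 and 4.01 in control replicates 1 to 5. All 7 had an unadjusted p under 0.05 (13.6% of all genes). Of the 7, 1 passed (2.14% of all genes), the keratin gene Krt8 (log2 fold change 1.44, adjusted p = 0.0477). With that mean as a covariate, the log2 fold change of Cd63 was -0.13 (adjusted p = 0.983), and with the neutrophil and monocyte mean it was 0.01. Among the controls, Cd63 and the marker mean did not share an order.

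Cd81, Cd82 and Cd151 had intervals that held 0. CD81 forms complexes with immunoglobulin-superfamily proteins and is found on most cells. Cd81 read 11.03, 11.04, 11.68, 11.34 and 11.71 in knockout replicates 1 to 5, against 10.57, 11.50, 11.34, 11.58 and 11.31 in control replicates 1 to 5. The lowest arrays were control replicate 1 and knockout replicates 1 and 2, which also had the lowest means of the 10 pan-endothelial genes (9.88, 9.83 and 9.93). The log2 fold change of Cd81 was 0.10 ± 0.21 (SE, adjusted p = 0.884), an interval from 0.78-fold to 1.47-fold, and -0.08 without control replicate 1. Over the 22 alternatives it ran from -0.12 to 0.64.

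Cd82, a tetraspanin known for restraining cell migration, was the least variable of the 9 genes in the knockout. It read 7.87, 7.84, 7.96, 8.02 and 7.87 in knockout replicates 1 to 5, against 8.29, 7.94, 8.05, 7.91 and 7.86 in control replicates 1 to 5. The groups overlapped, with control replicate 1 above all the rest. Its log2 fold change was -0.10 ± 0.11 (SE, adjusted p = 0.743), with an interval from 0.797-fold to 1.10-fold, and -0.03 (adjusted p = 0.935) without control replicate 1. Over the 22 alternatives it ran from -0.13 to 0.06.

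Cd151, the partner of the laminin-binding integrins, read 8.22, 8.57, 8.59, 8.60 and 8.48 in knockout replicates 1 to 5, against 8.23, 8.82, 8.64, 8.82 and 8.79 in control replicates 1 to 5. The lowest array of each group was its replicate 1, and without control replicate 1 every knockout array lay below every control. Its log2 fold change was -0.17 ± 0.14 (SE, adjusted p = 0.647) on all arrays and -0.28 (adjusted p = 0.234) without that control. Over the 22 alternatives it ran from -0.57 to -0.08. Without control replicate 1 the groups of 2 of the 9 genes did not overlap, Cd9 and Cd151, against 7.75% of all genes.

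Tspan18, a tetraspanin of endothelium that binds the calcium channel Orai1, did not pass. It read 8.93, 8.75, 9.08, 9.07 and 9.13 in knockout replicates 1 to 5, against 8.38, 9.04, 8.89, 9.23 and 8.96 in control replicates 1 to 5. The groups overlapped, and control replicate 1 was the lowest array. The log2 fold change was 0.09 ± 0.15 (SE, adjusted p = 0.845) with an interval from 0.84-fold to 1.34-fold, and -0.04 without control replicate 1. Over the 22 alternatives it ran from -0.10 to 0.37. Orai1 itself read 5.43 ± 0.10 in knockout and 5.43 ± 0.15 in control arrays (SD, n = 5 each) and did not pass (adjusted p = 0.996).

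The leukocyte tetraspanins Cd53 and Cd37 lay on opposite sides of 0, and neither passed. Cd53 read 6.10, 7.25, 6.30, 6.46 and 7.0 in knockout replicates 1 to 5, against 4.18, 5.50, 5.86, 6.75 and 6.13 in control replicates 1 to 5. Control replicate 1 was far below the rest, and control replicate 4 above 3 knockout arrays. Means were 6.62 ± 0.49 in knockout and 5.68 ± 0.96 in control arrays (SD, n = 5 each), for a log2 fold change of 0.94 ± 0.41 (SE, adjusted p = 0.338). Without control replicate 1 it was 0.56 (adjusted p = 0.379).

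Cd37 read 5.53, 5.99, 6.17, 5.97 and 6.11 in knockout replicates 1 to 5, against 7.12, 6.25, 6.08, 5.88 and 6.19 in control replicates 1 to 5. Apart from control replicate 1 at the top and knockout replicate 1 at the bottom, all arrays lay between 5.88 and 6.25. Control replicate 1 also had the highest T and NK cell mean of all arrays (4.08, where knockout arrays had 3.48 to 3.69). Its B cell mean was the highest of the controls (4.21, where knockout arrays had 4.35 to 4.90). Of these lists, Klrb1c, Trbc2 and Fcer2a stood far above the other controls in that array, while Cd3e and Ighm were lowest of the controls there. The part of such cells in the Cd37 value was not tested. The log2 fold change was -0.35 ± 0.22 (SE, adjusted p = 0.537), and -0.15 without control replicate 1 (adjusted p = 0.707).

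General leukocyte genes ranked the arrays as Cd53 did. The mean of 10 pan-leukocyte genes was 6.14, 6.77, 6.21, 6.40 and 6.41 in knockout replicates 1 to 5, against 5.53, 5.68, 5.84, 6.24 and 5.97 in control replicates 1 to 5. The arrays had the same order for Cd53 within each group. Of these 10 genes 0 passed by limma and 6 had an unadjusted p under 0.05 (2.14% and 13.6% of all genes). The largest difference among them was that of Ptprc, which encodes the common leukocyte antigen CD45 (log2 fold change 1.17 ± 0.29, adjusted p = 0.0652), and it passed without control replicate 1 (0.87, adjusted p = 0.011). With the list mean as a covariate the log2 fold change of Cd53 was -0.47 and that of Cd37 was -0.003, with adjusted p of 0.877 and 1.00. What leukocytes in the pools contributed was not tested further. Of 6 measured B cell markers 1 rose by limma, the heavy chain gene Ighm (log2 fold change 2.07), and 2 had an unadjusted p under 0.05. The other of these 2 was Fcer2a (log2 fold change 1.51, adjusted p = 0.0813), and all 6 lay above 0. Of 8 T and NK cell markers 0 passed by limma and 0 had an unadjusted p under 0.05.

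**Figure D2:**
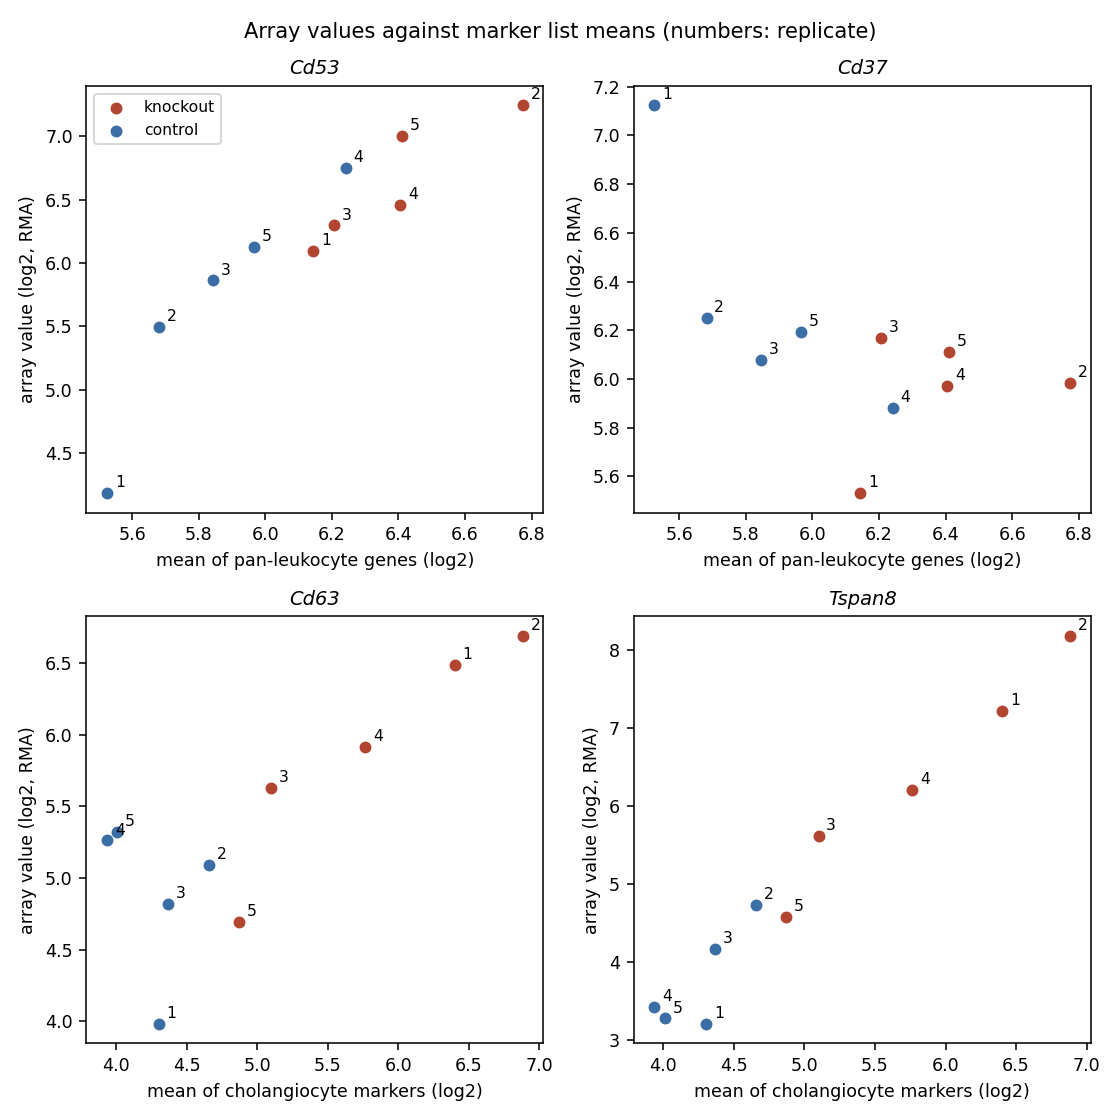
Array values (log2, RMA) of Cd53 and Cd37 against the mean of 10 pan-leukocyte genes, and of Cd63 and Tspan8 against the mean of 7 cholangiocyte markers; red points are knockout and blue points control arrays, numbered by replicate. Cd53 climbs with the leukocyte mean in both groups, Cd37 does not, and Tspan8 is highest in knockout replicate 2 (8.18), the array with the highest cholangiocyte mean (6.88).

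On all arrays, Tm4sf1 showed the smallest difference of the 9 genes. It read 8.45, 8.53, 8.47, 8.75 and 8.80 in knockout replicates 1 to 5, against 8.77, 8.53, 8.60, 8.39 and 8.48 in control replicates 1 to 5. The groups covered almost the same range. The log2 fold change was 0.05 ± 0.11 (SE, adjusted p = 0.902). The interval ran from 0.869-fold to 1.23-fold, and without control replicate 1 the log2 fold change was 0.10 (adjusted p = 0.755). Without that array the differences of Cd81, Cd82 and Tspan18 were smaller in size. Over the 22 alternatives the log2 fold change of Tm4sf1 ran from -0.004 to 0.15.

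The gene next to Tm4sf1 passed the threshold. Tm4sf4, another L6 family gene known from liver and intestinal epithelium, is its neighbour along the chromosome, with 0 measured genes between them in the RefSeq gene table. It read 8.68, 8.97, 6.91, 8.16 and 6.49 in knockout replicates 1 to 5, against 3.25, 6.33, 5.22, 4.62 and 4.61 in control replicates 1 to 5. Every knockout array lay above every control, with knockout replicates 1, 2 and 4 highest. Tm4sf4 rose 8.21-fold (log2 fold change 3.04 ± 0.59, SE, adjusted p = 0.022). The call held when knockout replicate 3 or 5 or control replicate 1, 2 or 3 was left out and ended without any other array (adjusted p up to 0.0658). It also ended without moderated variances (adjusted p = 0.0957) and with each of the 4 marker means as a covariate. With the cholangiocyte mean the log2 fold change was 0.97 (adjusted p = 0.814). Of the 4 other L6 family genes it was the only one past the threshold by limma. Tm4sf5 (log2 fold change -0.02), Tm4sf19 (-0.09) and Tm4sf20 (0.09) did not pass and lay below the array median in both groups.

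Promoter sequences are given for Cd9, the only one of the 9 genes whose groups did not overlap, for the leukocyte pair Cd53 and Cd37, for the neighbours Tm4sf1 and Tm4sf4, and for Tspan8, which had the largest difference of any tetraspanin. RefSeq promoter windows of GRCm38.p6 cover 250 bases before to 50 after each start, and 8 of the 9 genes have one. Capitals mark GATA, the core of the motif bound by GATA factors, GAGGAA, a core bound by the leukocyte factor PU.1, and GGGCGG, a core bound by SP1, each on either strand. The windows are Cd9 at chr6:125494711-125495010 (minus strand), Cd53 at chr3:106790100-106790399 (minus), Cd37 at chr7:45238790-45239089 (minus), Tm4sf1 at chr3:57301939-57302238 (minus), Tm4sf4 at chr3:57425160-57425459 (plus) and Tspan8 at chr10:115817034-115817333 (plus), each read in the direction of its gene.
Cd9: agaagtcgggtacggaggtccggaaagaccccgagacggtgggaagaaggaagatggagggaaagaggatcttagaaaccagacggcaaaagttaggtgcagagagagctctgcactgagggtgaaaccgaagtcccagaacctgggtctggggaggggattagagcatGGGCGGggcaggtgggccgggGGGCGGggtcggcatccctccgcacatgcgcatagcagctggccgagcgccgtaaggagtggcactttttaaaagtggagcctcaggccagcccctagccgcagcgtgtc
Cd53: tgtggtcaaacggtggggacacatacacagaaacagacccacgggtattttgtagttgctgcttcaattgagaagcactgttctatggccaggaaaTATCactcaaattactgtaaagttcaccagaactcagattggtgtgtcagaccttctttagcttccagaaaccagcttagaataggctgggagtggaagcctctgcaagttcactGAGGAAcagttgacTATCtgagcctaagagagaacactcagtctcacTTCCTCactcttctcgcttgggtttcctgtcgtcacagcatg
Cd37: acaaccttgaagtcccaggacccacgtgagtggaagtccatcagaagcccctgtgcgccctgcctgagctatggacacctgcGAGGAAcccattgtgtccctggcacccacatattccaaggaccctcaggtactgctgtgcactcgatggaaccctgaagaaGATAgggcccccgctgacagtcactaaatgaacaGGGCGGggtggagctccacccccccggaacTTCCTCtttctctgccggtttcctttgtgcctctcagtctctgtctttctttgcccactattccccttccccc
Tm4sf1: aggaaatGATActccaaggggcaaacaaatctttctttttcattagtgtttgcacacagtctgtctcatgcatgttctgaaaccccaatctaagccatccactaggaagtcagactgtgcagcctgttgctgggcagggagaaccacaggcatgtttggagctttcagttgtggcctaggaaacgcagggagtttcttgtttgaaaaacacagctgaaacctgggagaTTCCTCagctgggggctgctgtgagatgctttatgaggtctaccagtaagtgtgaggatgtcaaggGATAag
Tm4sf4: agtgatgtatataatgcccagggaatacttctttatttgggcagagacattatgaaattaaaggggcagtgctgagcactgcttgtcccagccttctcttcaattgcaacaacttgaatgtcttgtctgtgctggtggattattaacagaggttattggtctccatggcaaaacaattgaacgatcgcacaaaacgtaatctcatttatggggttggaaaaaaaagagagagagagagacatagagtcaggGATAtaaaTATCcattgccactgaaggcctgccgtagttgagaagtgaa
Tspan8: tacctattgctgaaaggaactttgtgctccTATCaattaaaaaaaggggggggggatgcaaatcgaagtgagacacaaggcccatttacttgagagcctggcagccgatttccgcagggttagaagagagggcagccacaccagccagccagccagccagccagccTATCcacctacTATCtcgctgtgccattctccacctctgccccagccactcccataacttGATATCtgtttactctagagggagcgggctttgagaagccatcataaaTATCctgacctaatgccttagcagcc

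Of 32851 promoter windows in the same table, 57.9% hold GATA, 28.3% hold GAGGAA and 35.7% hold GGGCGG on either strand. These are shares of windows with at least 1 match, and no share was computed for higher counts. The Cd9 window holds 2 GGGCGG and neither of the other motifs, and is 61.3% G and C, where the median window is 52.7%. The windows of Cd53 and Cd37 each hold 2 GAGGAA, and Cd63 and 1 of the 4 windows of Cd82 hold 2 as well. Cd53 also holds 2 GATA, and Cd37 also holds 1 GATA and 1 GGGCGG. Tm4sf1 and Tm4sf4 hold 2 GATA each, and Tm4sf1 also holds 1 GAGGAA. The Tspan8 window holds 6 GATA, 2 of which are both strands of 1 GATATC. A match is a run of letters and not a binding site.

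**Figure D3:**
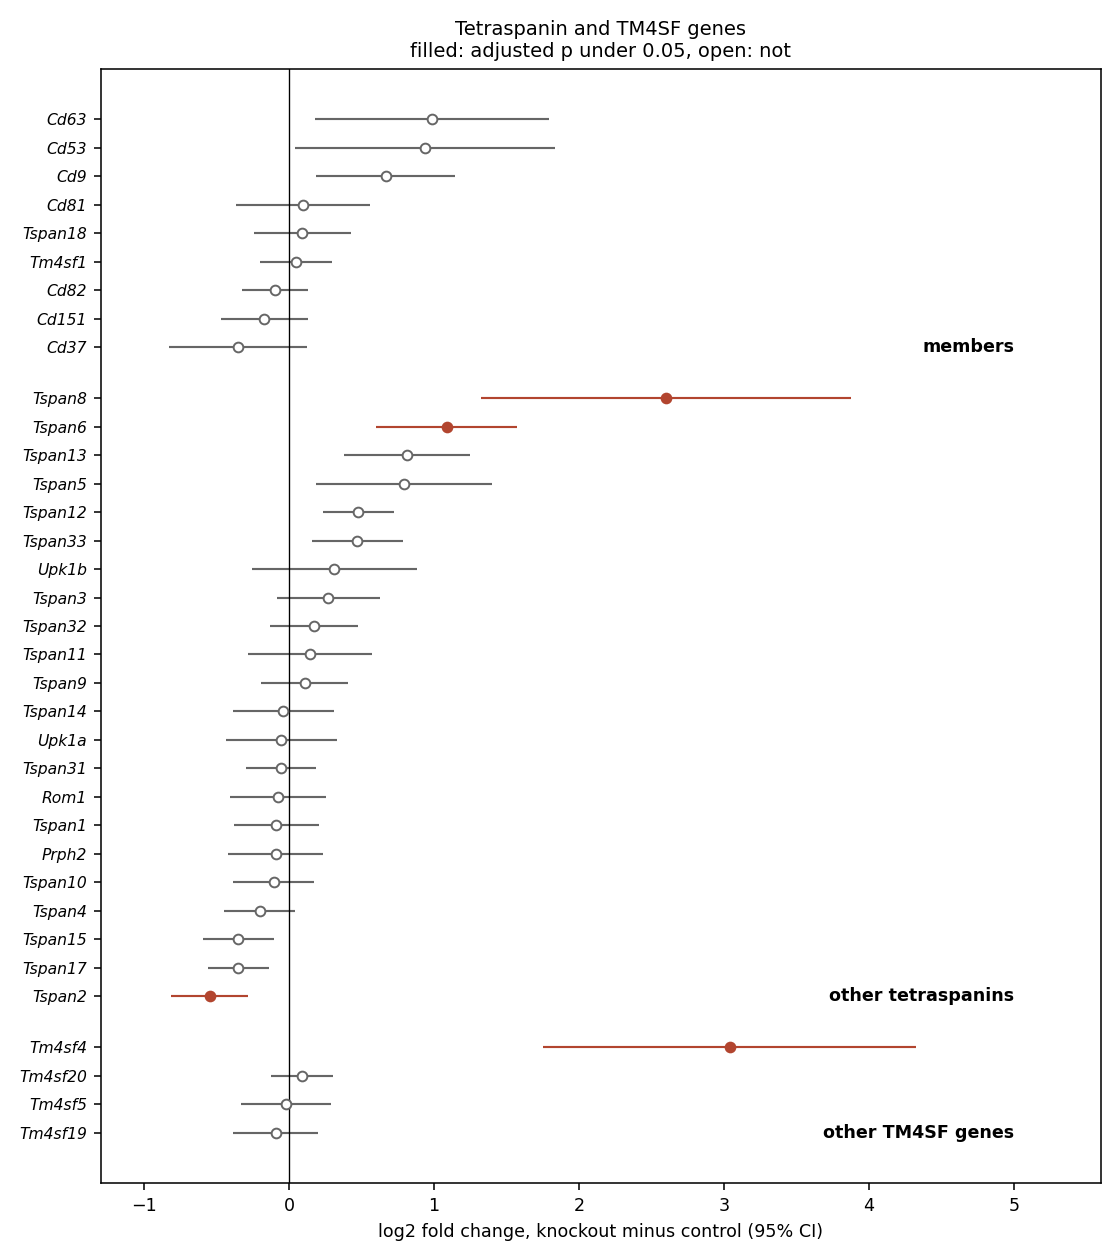
Log2 fold change (knockout minus control, horizontal axis) with its 95% confidence interval for the 9 genes, for 22 other tetraspanins and for 4 other L6 family (TM4SF) genes, ordered by size in each block. Filled points have an adjusted p under 0.05; these are Tspan8, Tspan6, Tspan2 and Tm4sf4, while all 9 genes in the top block are open.

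In the rest of the tetraspanin family 3 of 22 measured genes passed, Tspan6 and Tspan8 upward and Tspan2 downward, against 2.14% of all genes. At an unadjusted p under 0.05 there were 9 of 22 (13.6% of all genes), and the groups did not overlap for 6 of 22 (4.93% of all genes). The median log2 fold change of the 22 genes was 0.03. Of these genes 5 lay below the array median in both groups.

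Tspan6, a tetraspanin linked to vesicle release, read 5.69, 6.14, 5.55, 6.00 and 5.19 in knockout replicates 1 to 5, against 3.95, 4.72, 4.71, 5.06 and 4.70 in control replicates 1 to 5. Every knockout array lay above every control, and replicate 5 came closest. Tspan6 rose 2.12-fold (log2 fold change 1.09 ± 0.22, SE, adjusted p = 0.0287). The call held without knockout replicate 5 or without control replicate 1 or 4, and ended when any other array was left out (adjusted p up to 0.0807). With the cholangiocyte mean as a covariate the log2 fold change was 0.66 and with the neutrophil and monocyte mean 0.16, neither past the threshold.

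Tspan8 read 7.22, 8.18, 5.61, 6.21 and 4.58 in knockout replicates 1 to 5, against 3.21, 4.73, 4.17, 3.42 and 3.28 in control replicates 1 to 5. Knockout replicate 5 lay below control replicate 2, and the other knockout arrays lay above all controls. Means were 6.36 ± 1.40 in knockout and 3.76 ± 0.66 in control arrays (SD, n = 5 each), for a log2 fold change of 2.60 ± 0.58 (SE, adjusted p = 0.0453). Its order over the knockout arrays was that of the cholangiocyte mean, and with that mean as a covariate the log2 fold change was 0.05 (adjusted p = 0.991). The call held without knockout replicate 5 and ended without any other array (adjusted p up to 0.117).

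Tspan2, known from the myelin-forming cells of the brain, was the tetraspanin that fell. It read 6.28, 6.45, 6.51, 6.38 and 6.68 in knockout replicates 1 to 5, against 7.36, 6.94, 6.88, 6.95 and 6.92 in control replicates 1 to 5. The groups did not overlap, and the controls other than replicate 1 were close together. Tspan2 fell by 0.55 on the log2 scale (SE 0.12, adjusted p = 0.0432). The call held without knockout replicate 5 or control replicate 1 and ended without any other array (adjusted p up to 0.109). With the cholangiocyte mean as a covariate the log2 fold change was -0.38 and with the pan-leukocyte mean -0.45, neither past the threshold.

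**Figure D4:**
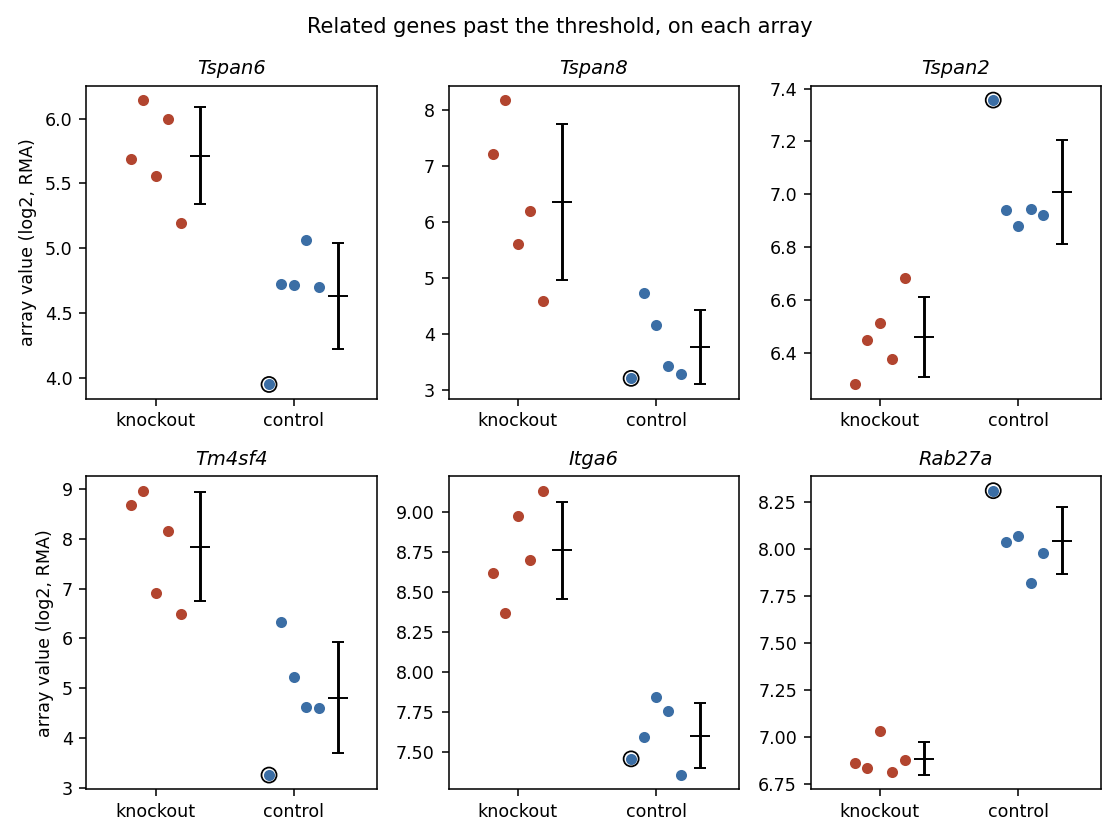
Array values (log2, RMA) of the 4 related genes and 2 partner genes past the threshold, knockout arrays at left (red) and control arrays at right (blue), replicates 1 to 5 from left to right, with mean ± SD and a ring around control replicate 1. Groups do not overlap in any panel but that of Tspan8, where knockout replicate 5 (4.58) lies below control replicate 2 (4.73).

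Tspan12, which joins the Wnt receptor Fzd4 in norrin signalling in retinal vessels, came close to the threshold. It read 8.79, 8.72, 9.05, 9.20 and 8.94 in knockout replicates 1 to 5, against 8.55, 8.42, 8.52, 8.46 and 8.36 in control replicates 1 to 5. The groups did not overlap, and the log2 fold change was 0.48 ± 0.11 (SE, adjusted p = 0.0526). It passed without control replicate 1 (adjusted p = 0.0424). Tspan13 fell short by little more on all arrays (log2 fold change 0.81 ± 0.20, SE, adjusted p = 0.0617), with 4 knockout arrays above every control. Fzd4 read 8.89 ± 0.28 in knockout and 8.83 ± 0.18 in control arrays (SD, n = 5 each), with an adjusted p of 0.899 and a log2 fold change of 0.06, or -0.01 without control replicate 1.

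The TspanC8 tetraspanins bind the protease ADAM10, which cuts Notch and cadherins, and bring it to the cell surface. Of the 6 genes of this subfamily 0 passed by limma (2.14% of all genes) and 4 had an unadjusted p under 0.05 (13.6% of all genes). These 4, chosen after their values were seen, pointed both ways. Tspan5 (log2 fold change 0.79) and Tspan33 (0.47) lay higher in the knockout, and Tspan15 (-0.35) and Tspan17 (-0.35) lower. The groups did not overlap for 3 of the 6, Tspan5, Tspan15 and Tspan17 (4.93% of all genes). Tspan17 passed with array weights (-0.37, adjusted p = 0.0437). For Tspan5 control replicate 1 read 4.21 and the next control 5.29, and without that array the log2 fold change was 0.50 (adjusted p = 0.0848). Tspan14, a TspanC8 member known from endothelium, was at -0.04 ± 0.16 (SE, adjusted p = 0.946), and Adam10 at 0.10 ± 0.11 (adjusted p = 0.738). Without control replicate 1, Tspan14 was at -0.15 and Adam10 at 0.06.

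Among 26 measured genes for partners of tetraspanins, the integrin chain gene Itga6 rose and the vesicle traffic gene Rab27a fell, and 24 did not pass. These 2 of 26 stand against 2.14% of all genes. At an unadjusted p under 0.05 there were 13 of 26, against 13.6% of all genes, and the median log2 fold change was 0.31, where that of all genes was -0.02. Only 2 of the 26 lay below the array median in both groups. Of the 12338 genes with a mean above that median, fitted alone by limma, 4.81% passed and 2332 had an unadjusted p under 0.05. Itga6 encodes the alpha-6 chain of the laminin receptors that CD151 binds. It read 8.62, 8.37, 8.98, 8.70 and 9.14 in knockout replicates 1 to 5, against 7.46, 7.59, 7.84, 7.75 and 7.35 in control replicates 1 to 5. All knockout arrays lay above all controls, a 2.24-fold difference (log2 fold change 1.16 ± 0.16, SE, adjusted p = 0.00272). Itga6 stayed past the threshold without each array in turn (adjusted p up to 0.0111). Its log2 fold change was 1.23 with the pan-leukocyte mean and 1.48 with the neutrophil and monocyte mean as a covariate, where the call ended (adjusted p = 0.0985 and 0.583). In the neutrophil and monocyte fit 0 of all genes passed.

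Rab27a encodes a small GTPase that acts in the traffic of CD63-bearing vesicles and Weibel-Palade bodies. It read 6.86, 6.84, 7.04, 6.82 and 6.88 in knockout replicates 1 to 5. In control replicates 1 to 5 it read 8.31, 8.04, 8.07, 7.82 and 7.98. The groups were far apart and narrow. Rab27a was 2.23-fold lower (log2 fold change -1.16 ± 0.11, SE, adjusted p = 0.000276). It stayed past the threshold without each array in turn (adjusted p up to 0.00168). The call ended with the cholangiocyte mean as a covariate (-1.13, adjusted p = 0.0528) and with the neutrophil and monocyte mean (-0.98, adjusted p = 0.635), its size moving little. In the neutrophil and monocyte fit 0 of all genes passed.

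Other direct partners of the 9 genes did not pass. Itgb1, the beta-1 integrin chain shared by the laminin receptors, was at 0.03 ± 0.09 (SE, adjusted p = 0.927) and at 0.002 without control replicate 1. The CD9 and CD81 partner genes Igsf8 (-0.34 ± 0.24, adjusted p = 0.592) and Ptgfrn (0.77 ± 0.21, adjusted p = 0.0958) lay on opposite sides of 0. Ptgfrn did not overlap between the groups, with a lowest knockout value of 5.61 and a highest control value of 5.40, and it passed without control replicate 1 (0.56, adjusted p = 0.0278). Igsf8 was at -0.57 without that array and did not pass (adjusted p = 0.0988).

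**Figure D5:**
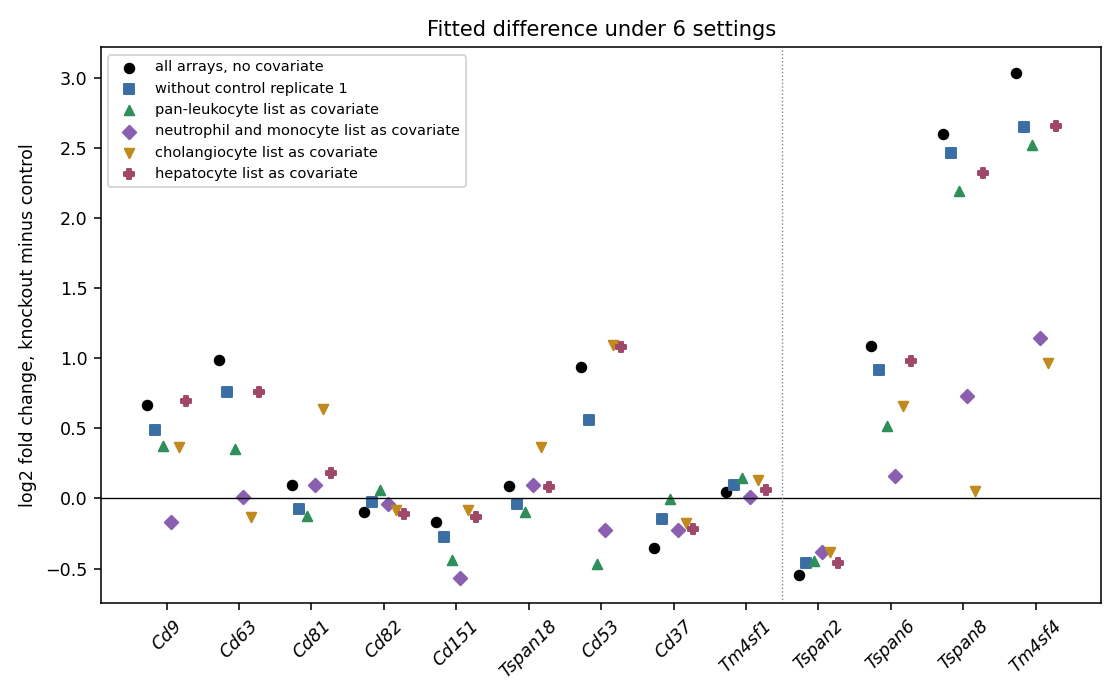
Log2 fold change (knockout minus control, vertical axis) of the 9 genes, left of the dotted line, and of Tspan2, Tspan6, Tspan8 and Tm4sf4, right of it, under 6 settings shown by shape and colour. Cd53 is below 0 with the pan-leukocyte mean as a covariate (-0.47), and Cd63 and Tspan8 are near 0 with the cholangiocyte mean (-0.13 and 0.05), while Tm4sf1 lies near 0 in all 6.

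With the pan-leukocyte, neutrophil and monocyte, cholangiocyte or hepatocyte mean in the model, 65, 0, 53 and 306 of all genes passed, where 529 passed without a covariate. At an unadjusted p under 0.05 the neutrophil and monocyte fit had 1170 genes. As 0 genes passed in that fit, a call that ended there is particular to no gene. These means differ between the groups themselves, so a covariate also takes up part of the group difference. What other cells contributed to the differences of Cd9, Cd53, Cd63, Tspan6, Tspan8 and Tm4sf4 was not tested beyond these fits.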

How the data were processed

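Per the labels, total RNA of 10 samples was labelled with biotin and read on Affymetrix arrays of 1 colour. The authors' deposited values are log2 values made with RMA, per the submitters' processing notes (no version stated). The sorted values of 9 arrays were identical and those of knockout replicate 1 differed from them by at most 0.0019, with a median of 3.71, so nothing was normalized further. No source used here names the probe locations or a genome build. Of 25428 probe sets 723 were unnamed here and left out of the main fit, and 1 probe set was kept per symbol, the brighter, which left 24704 genes.

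Groups came from the sample titles. The knockout minus control difference was fitted in limma 3.58.1 under R 4.3.3 (lmFit and eBayes, no trend, no filter, both directions) on all genes, with Benjamini-Hochberg adjustment and a threshold of 0.05. The p-values rest on the spread among pools, each of 3 mice, and 5 arrays per group limit the precision. The members and the 15 gene lists were chosen with earlier results of these data known. Named were all members, every other tetraspanin or partner past the threshold (with up to 2 more of smallest p where fewer than 2 passed), the other TM4SF genes, 10 genes always reported and the first 2 of each marker list; others were chosen after their values were seen. This fit was first run on simulated data with known changes. Their noise was drawn independently for each gene and array, so that run held no outlying array and no shifts shared among genes. The alternatives were an intensity trend, array weights, dim genes left out, all probe sets, a replicate block, 2 scalings, no moderation, each array left out, and 4 marker list means as covariates.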

Additional observations from a re-analysis of the deposited data

Results flagged for a closer look

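In 100 groups of 5 arrays (the members and other named genes, each in knockout and control), 1 array stood far from the other 4 in 7. Chance gives about 5% of such groups. Control replicate 1 was the far array in 5 of the 7.

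Cd81 is the 1 such case among the 18 groups of the members. Control replicate 1 read 10.57 and the next control 11.31. Among the other genes control replicate 1 was highest for Tspan2 (7.36, next 6.95) and for the platelet gene Gp9 (5.09, next 4.37), and lowest for Igsf8 (4.65, next 5.57) and for Des, the desmin gene of stellate cells (3.59, next 5.24). Knockout replicate 2 was highest of its group for Des (6.70, next 6.04) and for Tm4sf19 (3.06, next 2.67).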

How the results depend on the processing

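All 9 members stayed short of the threshold under all 22 alternatives (0 of 198 values past it by limma or the unmoderated model, smallest adjusted p 0.057). Over all genes 1070 passed with array weights, 324 without moderation, 65 with the pan-leukocyte, 0 with the neutrophil and monocyte (1170 at an unadjusted p under 0.05), 53 with the cholangiocyte and 306 with the hepatocyte mean as a covariate, and 287 to 737 when 1 array was left out. Of the other tetraspanins 5 passed with array weights, 5 without dim genes, 0 without moderation (9 at an unadjusted p under 0.05), 0 with each of the 4 covariates (5, 1, 4 and 9 at an unadjusted p under 0.05, in the order above), and 0 to 3 when 1 array was left out. Of the partners 6 passed with array weights, 1 with the pan-leukocyte, 0 with the neutrophil and monocyte (4 at an unadjusted p under 0.05) and 1 with the cholangiocyte mean, and 2 to 4 when 1 array was left out. S100a8, a member of the neutrophil and monocyte list, was at -0.019 with that list's own mean as a covariate. The cause of these moves was not tested.

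Same-numbered arrays did not deviate together (correlations of -0.165 to 0.0389 across genes, 0 of 5 knockout arrays closest to the control of their own number), so the numbers were not taken as pairs. With the replicate number as a block 275 of all genes, 0 members, 1 other tetraspanin and 2 partners passed.

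The table gives no signal over background, and low values have no floor.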
